A study of Mus musculus with 156 samples.

Results

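RNA abundance of 10 imprinted genes was measured in mouse embryonic stem cells that lacked, regained or gained the long noncoding RNA Firre. The genes were Peg3, Usp29, Mest, Plagl1, Peg10, Sgce, Snrpn, Ndn, Nnat and Impact, chosen by symbol as paternally expressed genes outside the Igf2 and Dlk1 domains, and they are 10 of the 40914 genes in the deposited tables. That rule used no measured value, but the genes were chosen with earlier results of these data known. All 10 passed the filter on low counts in both time courses.

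Imprinted genes are read from the copy inherited from one parent, because DNA methylation laid down in the egg or the sperm silences the other copy, and zinc finger proteins such as ZFP57 with the corepressor TRIM28 keep that methylation after fertilization. Paternally expressed genes are known as a group for promoting growth and placental development, and several of them rise and fall together in a network around the transcription factor PLAGL1. Embryonic stem cells express many imprinted genes, and their imprints are known to be unstable in culture. The libraries carried no parental alleles, so every value is the sum of both copies of a gene.

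Poly(A) RNA was sequenced from 4 lines. The labels name them as a Firre KO line with a Firre inducible transgene (KO transgene), a Firre KO line (KO control), a WT line with the inducible transgene (WT transgene) and a WT line (WT control). All 4 lines grew on gelatin with serum, LIF and 2 inhibitors (PD0325901 against MEK, CHIR99021 against GSK3), and the controls received doxycycline like the transgene lines, except at 0 min. A long course had 3 replicates at 0, 12, 24, 48 and 96 h (60 libraries), and a short course had 2 replicates every 30 min from 0 to 330 min (96 libraries). Each genotype was 1 line, the promoter of the transgene is not given in the labels, and nothing says whether replicates were separate cultures, so a p-value measures only the spread between these samples, which may be technical. The courses were scaled separately, and levels are compared within a course.

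Libraries held between 18961799 and 47948630 counts in the long course and between 19013652 and 37195019 in the short course. Firre followed the labels: after 0 min it was at 24.8 to 50.8 TPM in the KO transgene line and 0.391 to 1.07 TPM in the KO control over the long course, and at 62.8 to 121 TPM in the WT transgene line and 21.3 to 31.3 TPM in the WT control. In the short course after 0 min it was at 130 to 471 TPM in the KO transgene line, 0.279 to 2.02 TPM in the KO control, 283 to 1240 TPM in the WT transgene line and 19.2 to 32 TPM in the WT control. In the WT transgene line Firre was already at 45.8 to 46.8 TPM at 0 h, against 23.6 to 24.7 TPM in the WT control. All 10 of 10 embryonic stem cell markers had a median of at least 1 TPM, and 9 of 12 fibroblast or feeder markers had a median under 1 TPM. Replicate 3 of the WT control at 24 h stood apart in small structural RNAs. Leaving it out kept the direction and the call of all 32 called member values that were rerun. The 6 of them from the rescue compare only the KO lines, so this library entered those only through the shared fit.

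In level, by median TPM over the 156 libraries, the members ran from Snrpn (65.9 TPM, range 44.5 to 81.9) and Impact, on chromosome 18 (59.9 TPM, 40.4 to 82.8) through Plagl1 (45.5 TPM, 31.3 to 71.8), Mest (37.1 TPM, 17.9 to 64.5) and Peg3 (23.2 TPM, 15.8 to 38.9). Below them lay Peg10 (7.89 TPM, 3.68 to 41.7), Nnat (6.52 TPM, 2.25 to 12.4), Ndn (2.69 TPM, 1.39 to 4.89), Usp29 (1.32 TPM, 0.754 to 2.85) and Sgce (0.709 TPM, 0.237 to 2.14). The ranges of neighbours in that order overlapped. Peg3 had between 2631 and 11610 counts per library and Sgce between 7 and 76, so the precision differed greatly between members. Peg10 had the highest ratio of its highest to its lowest level.

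The members sit in 7 domains, with positions in mm10 (GENCODE M21). Peg3 (chr7:6703892-6730431, minus strand), a zinc finger protein, and Usp29 (chr7:6730578-6967219, plus strand), a ubiquitin-specific protease, are transcribed away from each other, with 146 bases between them. Peg10 (chr6:4747306-4760517, plus strand), a retrotransposon-derived gene needed for placental development, and Sgce (chr6:4674350-4747207, minus strand), epsilon-sarcoglycan, are another such pair, with 98 bases between them. Mest (chr6:30723547-30748465, plus strand), a hydrolase-fold protein, shares exon sequence with Copg2 on the opposite strand, and Plagl1 (chr10:13060504-13131694, plus strand) encodes a zinc finger transcription factor that restrains proliferation. Snrpn (chr7:59982495-60140219, minus strand), a spliceosome component, shares exons with Snurf, and Ndn (chr7:62346569-62350262, plus strand), the growth suppressor necdin, lies in the same Prader-Willi domain. Nnat (chr2:157560078-157562522, plus strand) encodes the membrane proteolipid neuronatin, and Impact encodes an inhibitor of the translation kinase GCN2. The libraries do not mark strand, so reads of Mest that fall in the stretch shared with Copg2, and those of Snrpn shared with Snurf, cannot be assigned with certainty.

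Promoter windows of 300 bases (250 before and 50 after a start, RefSeq, GRCm38.p6) were looked up for all members except Impact. They were present for 7 of those members, 12 windows in all. The windows of Peg3, Mest and Plagl1 are shown because the results turn on these genes. The Peg3 window holds another motif than those of Mest and Plagl1. Capitals mark TGCCGC, the core of the ZFP57 motif, or GGGGCCCC, the core of the PLAGL1 motif, on either strand, so GCGGCA is TGCCGC read on the other strand.
Peg3, chr7:6730370-6730669, minus strand: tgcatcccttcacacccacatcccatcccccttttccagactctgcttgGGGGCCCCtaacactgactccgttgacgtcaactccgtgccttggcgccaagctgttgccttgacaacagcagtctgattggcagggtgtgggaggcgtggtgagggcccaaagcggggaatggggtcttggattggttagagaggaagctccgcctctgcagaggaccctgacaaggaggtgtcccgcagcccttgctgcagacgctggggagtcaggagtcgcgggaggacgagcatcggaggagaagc
Mest, chr6:30737800-30738099, plus strand: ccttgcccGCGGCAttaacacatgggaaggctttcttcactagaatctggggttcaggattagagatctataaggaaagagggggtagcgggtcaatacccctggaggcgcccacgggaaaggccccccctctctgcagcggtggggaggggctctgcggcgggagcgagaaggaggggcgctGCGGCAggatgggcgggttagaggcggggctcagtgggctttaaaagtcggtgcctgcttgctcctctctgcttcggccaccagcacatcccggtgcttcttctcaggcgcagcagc
Plagl1, chr10:13090582-13090881, plus strand: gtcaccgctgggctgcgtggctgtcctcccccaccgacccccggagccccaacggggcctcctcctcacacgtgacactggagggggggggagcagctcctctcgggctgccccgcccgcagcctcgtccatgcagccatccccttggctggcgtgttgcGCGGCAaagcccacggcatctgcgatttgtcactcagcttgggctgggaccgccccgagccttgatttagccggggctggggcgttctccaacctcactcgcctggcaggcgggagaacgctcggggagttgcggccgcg
TGCCGC was in 11.6% of all 32851 windows and at least 2 copies were in 1.53%. The Mest window shown held 2 copies, as did a window shifted from it by a few bases, while the third Mest window, at chr6:30733256-30733555, held 0. The Plagl1 window held 1 copy. At least 1 copy was in 5 of the 12 member windows, which counts the overlapping Mest windows separately. GGGGCCCC was in 1.08% of all windows and in the overlapping windows of Peg3 and Usp29, whose starts lie 164 bases apart. AANATGGC, the core of the YY1 motif, was in 6.05% of all windows and in none of the 12 member windows. A match is only a match of letters within these windows.

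The first comparison asked how the genes differed in the Firre KO control from the WT control. In the long course most members were higher in the KO control. At 0 h 7 of 10 were higher and 1 lower (edgeR quasi-likelihood test, adjusted p under 0.05), where 35.1% of all genes tested passed (16.5% higher, 18.6% lower). Mest, Nnat, Ndn and Usp29 had the largest differences. The KO transgene line, with Firre at 0.588 to 1.07 TPM at 0 h, had 5 of 10 members lower than the KO control then (1.71% of all genes were lower). At 0 h the 5 neural markers, mostly Tubb3, summed to 64.7 to 69.1 TPM in the KO control and 52 to 55.3 TPM in the WT control, and the 10 embryonic stem cell markers to 7939 to 8126 TPM in the KO control and 9149 to 9272 TPM in the WT control. Their part in these differences was not tested. Less RNA per cell and fewer cells that express a gene cannot be told apart in these bulk samples.

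Mest had 90.8, 90.6 and 81.5 CPM (counts scaled by library size and TMM) in the KO control and 48, 46.1 and 48.3 CPM in the WT control at 0 h. The groups did not overlap, and the log2 fold change was 0.89 ± 0.04 (standard error, n = 3 each; adjusted p = 3.34e-31). Mest was higher in the KO control at every long-course time, with the smallest difference at 24 h (0.47 ± 0.04 on the log2 scale; adjusted p = 3.43e-14), and by 0.70 ± 0.02 on average over times (adjusted p = 4.20e-46; 15 of 15 KO control libraries).

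Peg3 had 223, 218 and 215 CPM in the KO control and 155, 156 and 155 CPM in the WT control at 0 h. The KO control lay above, by a log2 fold change of 0.49 ± 0.03 (adjusted p = 4.73e-23). At 12 h the difference was 0.55 ± 0.03 (adjusted p = 2.81e-25), whereas at 24 h it was 0.06 ± 0.03 and did not pass (adjusted p = 0.208), with 149, 144 and 147 CPM in the KO control and 149, 134 and 139 CPM in the WT control. Usp29 had 7.07, 6.95 and 7.72 CPM in the KO control at 0 h, against 4.92, 4.21 and 4.48 CPM in the WT control, with no overlap and a log2 fold change of 0.68 ± 0.11 (adjusted p = 5.10e-07).

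Nnat had 8.46, 8.88 and 8.14 CPM in the KO control and 3.86, 4.94 and 4.61 CPM in the WT control at 0 h. The groups were well apart, with a log2 fold change of 0.92 ± 0.10 (adjusted p = 7.90e-13), and the difference stayed between 0.79 and 0.95 on the log2 scale at all 5 times. Impact had 120, 123 and 123 CPM in the KO control at 0 h, against 91.9, 87.0 and 93.8 CPM in the WT control (log2 fold change 0.43 ± 0.04; adjusted p = 2.79e-15). Over all 5 times of the long course the 15 KO control libraries of Impact lay above the 15 WT control libraries without overlap.

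In the Prader-Willi domain, Ndn had 9.25, 7.99 and 9.09 CPM in the KO control and 5.18, 5.14 and 4.87 CPM in the WT control at 0 h (log2 fold change 0.79 ± 0.10; adjusted p = 1.32e-10). Snrpn had 86.8, 88.2 and 85.1 CPM in the KO control and 63.2, 67.0 and 68.3 CPM in the WT control (0.39 ± 0.03; adjusted p = 1.98e-16). Neither gene overlapped between the groups at 0 h. Both were higher in the KO control at each of the 5 times.

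Peg10 went the other way at 0 h, with 16.3, 17.2 and 16.6 CPM in the KO control and 21.9, 21.4 and 22.3 CPM in the WT control. It was lower by a log2 fold change of -0.39 ± 0.07 (adjusted p = 2.94e-05), and at 48 h it was higher in the KO control, with 74.9, 75.3 and 78.9 CPM against 50.2, 51.2 and 43.6 CPM in the WT control (0.66 ± 0.06; adjusted p = 2.18e-12). Plagl1 differed by 0.02 ± 0.04 at 0 h (adjusted p = 0.723) and Sgce by -0.38 ± 0.25 (adjusted p = 0.257). Averaged over the 5 times, 9 of 10 members were higher in the KO control and none was lower, beside 52.2% of all genes that passed (23.6% higher, 28.6% lower). Sgce was the member that did not pass (0.19 ± 0.12; adjusted p = 0.177). For Plagl1 that mean difference was 0.06 ± 0.02 (adjusted p = 0.00648), and it did not pass without replicate 2 (0.05; adjusted p = 0.0558).

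The short course gave another picture of the same lines. At 0 min 2 of 10 members were higher and 3 lower in the KO control (7.51% of all genes passed, 3.41% higher and 4.1% lower), and averaged over the 12 times 2 were higher and 4 lower (45.7% of all genes passed, 23.7% higher and 22.1% lower). Ndn and Snrpn were the members higher in the KO control in both courses. The neural marker sum was 43.5 to 52.4 TPM in the KO control and 60.2 to 75.3 TPM in the WT control of the short course, opposite to the long course at 0 h, and its part was not tested.

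Plagl1 differed most in the short course. It ranged from 72.6 to 86.9 CPM (median 78.8) over the 24 KO control libraries and from 106 to 127 CPM (median 117) over the 24 WT control libraries. The ranges did not overlap, and the mean log2 fold change was -0.55 ± 0.02 (adjusted p = 7.80e-39; lower in 24 of 24 KO control libraries). At 0 min it was -0.61 ± 0.06 (adjusted p = 2.05e-12), beside 0.02 ± 0.04 in the long course. The 24 libraries of a line are 2 replicates at 12 times, and the test took them as separate samples. Plagl1 was higher in replicate 2 at 11 of 12 times in the WT control and 5 in the KO control. Where replicates stay apart over times, the p-value of a mean over times may be too small, here and for the genes below.

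Peg3 ranged from 114 to 156 CPM (median 132) in the KO control and from 152 to 178 CPM (median 167) in the WT control of the short course. It was lower in the KO control by -0.33 ± 0.02 on the log2 scale (adjusted p = 4.65e-18), the opposite sign to the long course. Within the KO lines the replicates of Peg3 were apart: replicate 1 was above replicate 2 at 12 of 12 times in either KO line, and at 8 and 5 of 12 times in the WT transgene line and the WT control. The difference over times was -0.23 with replicate 2 left out and -0.43 with replicate 1 left out, and the one at 0 min was -0.26 ± 0.08 (adjusted p = 0.0371), or -0.10 without replicate 2 (adjusted p = 0.666).

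Impact ranged from 104 to 126 CPM (median 111) in the KO control and from 125 to 140 CPM (median 131) in the WT control. It was higher in replicate 1 at 11 of 12 times in the KO control and 4 in the WT control. Its mean difference of -0.24 ± 0.02 (adjusted p = 8.98e-18) was likewise opposite in sign to the long course, and it was -0.16 without replicate 2 and -0.31 without replicate 1. Usp29 averaged 3.26 ± 0.472 CPM in the KO control and 3.63 ± 0.349 CPM in the WT control (SD, n = 24 each; -0.15 ± 0.05 on the log2 scale, adjusted p = 0.00475), and this did not pass without replicate 2 (-0.09; adjusted p = 0.320). Mest, at 53.1 ± 2.12 CPM in the KO control and 53.5 ± 3.09 CPM in the WT control, differed by -0.01 ± 0.02 (adjusted p = 0.667), and Nnat differed by -0.06 ± 0.05 (adjusted p = 0.278).

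Ndn averaged 7.43 ± 0.853 CPM in the KO control and 5.28 ± 0.723 CPM in the WT control of the short course (0.49 ± 0.04 on the log2 scale; adjusted p = 6.37e-19; higher in 24 of 24 KO control libraries). Snrpn ranged from 72.3 to 82.7 CPM in the KO control and from 62.0 to 71.7 CPM in the WT control, without overlap (0.21 ± 0.01; adjusted p = 5.27e-20). Peg10 (0.04 ± 0.03; adjusted p = 0.258) and Sgce (-0.02 ± 0.11; adjusted p = 0.928) did not pass.

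**Figure D1:**
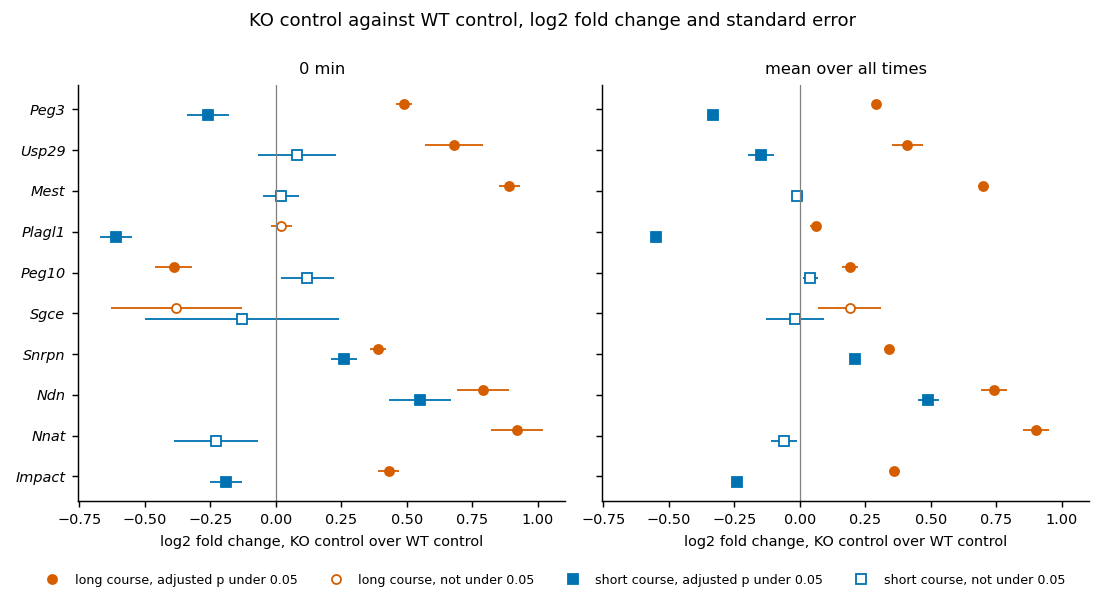
Log2 fold change of KO control over WT control (x axis) for each of the 10 genes (y axis), at 0 min (left) and averaged over all times (right), in the long (circles) and short (squares) course; bars are standard errors, and filled symbols have an adjusted p under 0.05. Ndn and Snrpn lie right of 0 in both courses, and Peg3 and Impact lie right of 0 in the long and left of 0 in the short course.

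The next question was how each transgene line compared with its control before doxycycline. At 0 h of the long course the KO transgene line had 5 of 10 members lower than its control (1.71% of all genes were lower) and none higher (1.83%), where 3.54% of all genes passed. The 5 were Ndn (-0.57 ± 0.09 on the log2 scale; adjusted p = 1.41e-05), Nnat (-0.52 ± 0.09; adjusted p = 7.95e-05), Mest (-0.35 ± 0.04; adjusted p = 1.68e-10), Peg3 (-0.34 ± 0.03; adjusted p = 6.07e-14) and Impact (-0.28 ± 0.04; adjusted p = 2.52e-07). Peg3, for example, had 173, 174 and 171 CPM in the KO transgene line and 223, 218 and 215 CPM in the KO control, without overlap. In the short course none of the 10 passed at 0 min (0.161% of all genes passed, 0.0666% higher and 0.0944% lower). At an unadjusted p under 0.05, Impact (-0.26 ± 0.06), Ndn (-0.50 ± 0.13) and Usp29 (-0.41 ± 0.16) were lower. DESeq2 called 1 member (0.355% of all genes), and a fit without the filter on low counts called 2 (0.795%).

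The WT transgene line had 3 members higher and 1 lower than its control at 0 h (13.2% of all genes passed, 7.22% higher and 5.94% lower). Ndn had 8.20, 8.63 and 7.72 CPM in the WT transgene line and 5.18, 5.14 and 4.87 CPM in the WT control (0.69 ± 0.10; adjusted p = 9.60e-08). Snrpn (0.26 ± 0.03; adjusted p = 5.91e-09) and Plagl1 (0.25 ± 0.04; adjusted p = 6.34e-07) were higher too, and Peg10 was lower (-0.28 ± 0.07; adjusted p = 0.00734). In the short course at 0 min 2 were higher and 2 lower (2.93% of all genes passed, 1.06% higher and 1.88% lower): Ndn by 0.91 ± 0.12 (adjusted p = 8.90e-08), Snrpn by 0.21 ± 0.05 (adjusted p = 0.00624), Impact by -0.35 ± 0.06 (adjusted p = 1.26e-04) and Plagl1 by -0.29 ± 0.06 (adjusted p = 4.80e-04). Without replicate 2 only the Ndn call among these 4 was kept.

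In the short course Ndn ranged from 4.47 to 6.19 CPM in the KO transgene line, from 5.58 to 9.01 CPM in the KO control, from 8.48 to 10.6 CPM in the WT transgene line and from 3.74 to 7.29 CPM in the WT control. The WT transgene line had the highest group mean at 12 of 12 times. At 0 min the transgene line was below its control in the KO background and above it in the WT background, in both courses.

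**Figure D2:**
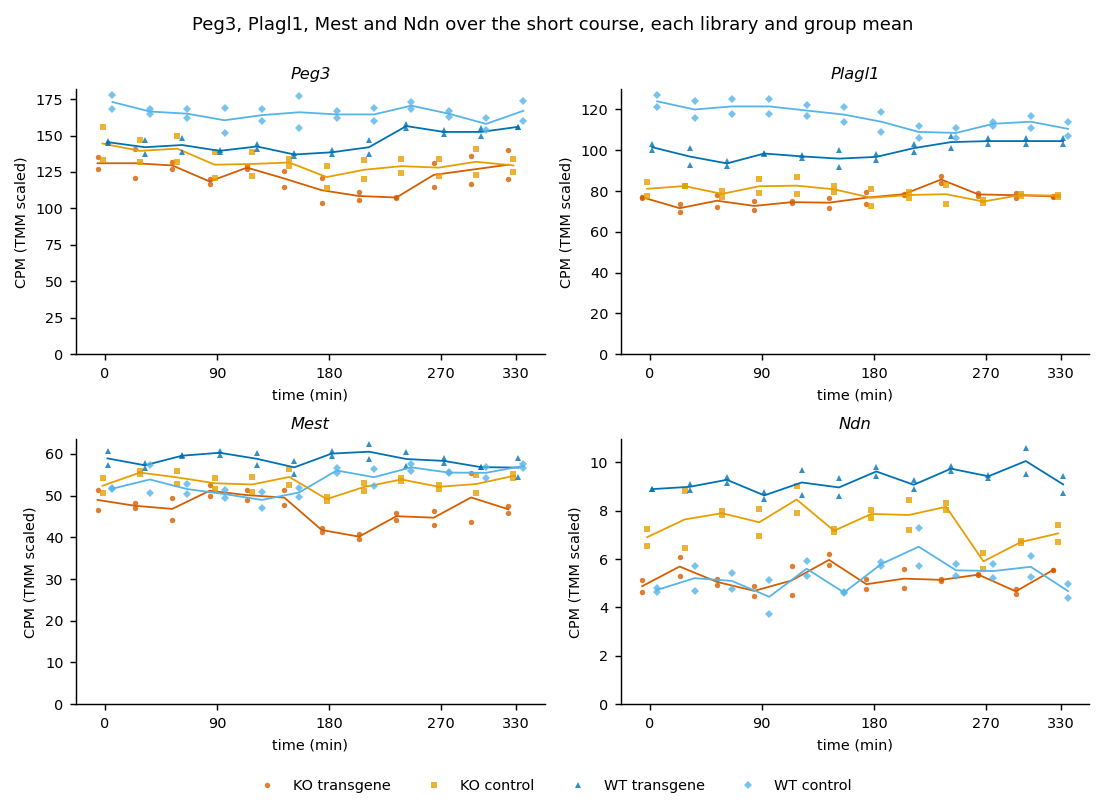
CPM (y axis) of Peg3, Plagl1, Mest and Ndn against time in min (x axis) in the short course; points are libraries (2 per line and time, offset sideways by line), lines join group means. Plagl1 lies at 69.5 to 87.5 CPM in the KO transgene line and 72.6 to 86.9 CPM in the KO control, below the 106 to 127 CPM of the WT control, and Ndn in the KO transgene line lies within the range of the WT control.

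The control lines changed over time on their own. They carried no transgene but received doxycycline, so the drug, the ageing of the medium and days of culture cannot be told apart. The mitochondrial share of counts differed over time too: it was 3.78 to 3.94% at 0 h and 4.80 to 5.44% at 48 h in the KO control, and 3.42 to 3.63% at 0 h and 4.96 to 5.33% at 48 h in the WT control. Its part in the changes was not tested. In the KO control 10 of 10 members passed over the long course, 4 higher and 6 lower at the time of largest change (59.6% of all genes passed, 29.8% higher and 29.8% lower), and in the WT control 3 were higher and 6 lower (54.8% of all genes passed, 28.7% higher and 26.1% lower). The same 3 genes, Peg10, Plagl1 and Impact, were higher and the same 6, Peg3, Usp29, Mest, Snrpn, Ndn and Nnat, were lower in each control.

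Peg10 rose most. Its KO control had 16.3, 17.2 and 16.6 CPM at 0 h, 18.0, 17.7 and 16.3 at 12 h, 45.2, 38.2 and 39.8 at 24 h, 74.9, 75.3 and 78.9 at 48 h and 69.6, 65.9 and 77.0 at 96 h. No library from 24 h on reached down to those of 0 h, and the change at 48 h was 2.19 ± 0.07 on the log2 scale (adjusted p over all times = 8.14e-36). In the WT control the change at 48 h was 1.14 ± 0.07 (adjusted p = 1.78e-21). Its neighbour Sgce, which starts 98 bases away, changed by 0.96 ± 0.24 at 24 h in the KO control (adjusted p = 1.17e-05) and did not pass in the WT control (-0.33 ± 0.26 at 96 h; adjusted p = 0.360). Plagl1 rose by 0.41 ± 0.04 at 48 h in the KO control (adjusted p = 6.58e-22) and by 0.47 ± 0.04 at 24 h in the WT control (adjusted p = 5.13e-22).

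Nnat fell, with a change of -0.95 ± 0.10 on the log2 scale at 48 h in the KO control (adjusted p = 1.41e-12) and -0.95 ± 0.13 in the WT control (adjusted p = 9.32e-10). Mest had 90.8, 90.6 and 81.5 CPM at 0 h and 48.9, 49.6 and 51.0 CPM at 48 h in the KO control, a change of -0.82 ± 0.04 (adjusted p = 3.82e-33), and it changed by -0.55 ± 0.05 in the WT control (adjusted p = 6.94e-19). By 96 h Mest was back at 69.9, 75.0 and 69.4 CPM in the KO control. Peg3 changed by -0.68 ± 0.03 at 48 h in the KO control (adjusted p = 2.72e-37) and by -0.37 ± 0.03 in the WT control (adjusted p = 1.10e-16). Usp29 changed by -0.84 ± 0.11 at 24 h in the KO control (adjusted p = 4.61e-12) and by -0.56 ± 0.13 at 48 h in the WT control (adjusted p = 7.10e-05). The changes of Snrpn and Ndn lay between -0.23 and -0.41.

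Impact, at 0.08 ± 0.04 in the KO control (12 h; adjusted p = 0.0355) and 0.17 ± 0.04 in the WT control (12 h; adjusted p = 8.40e-05), depends on the scale. On log2(TPM + 1), with limma, its change of largest size was -0.27 in the KO control and -0.26 in the WT control, and the KO control call was lost without replicate 1 or 2 (adjusted p = 0.167 each). TPM values of all genes shifted between times: the median change from 0 h over 10365 well expressed genes was as low as -0.15 on the log2 scale in TPM (WT control, 48 h), and at most 0.04 in scaled CPM, and the changes given here are relative to the CPM scale.

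Over the short course 2 of 10 members passed in the KO control, both lower (13.3% of all genes passed, 6.96% higher and 6.31% lower), and 3 in the WT control, 2 higher and 1 lower (21.8% of all genes passed, 12% higher and 9.8% lower). All 5 changes were small, between -0.14 (Peg3 in the KO control) and 0.17 (Ndn in the WT control) on the log2 scale (mean of the 11 later times). Leaving out replicate 2 kept 1 call in the KO control and 0 in the WT control.

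**Figure D3:**
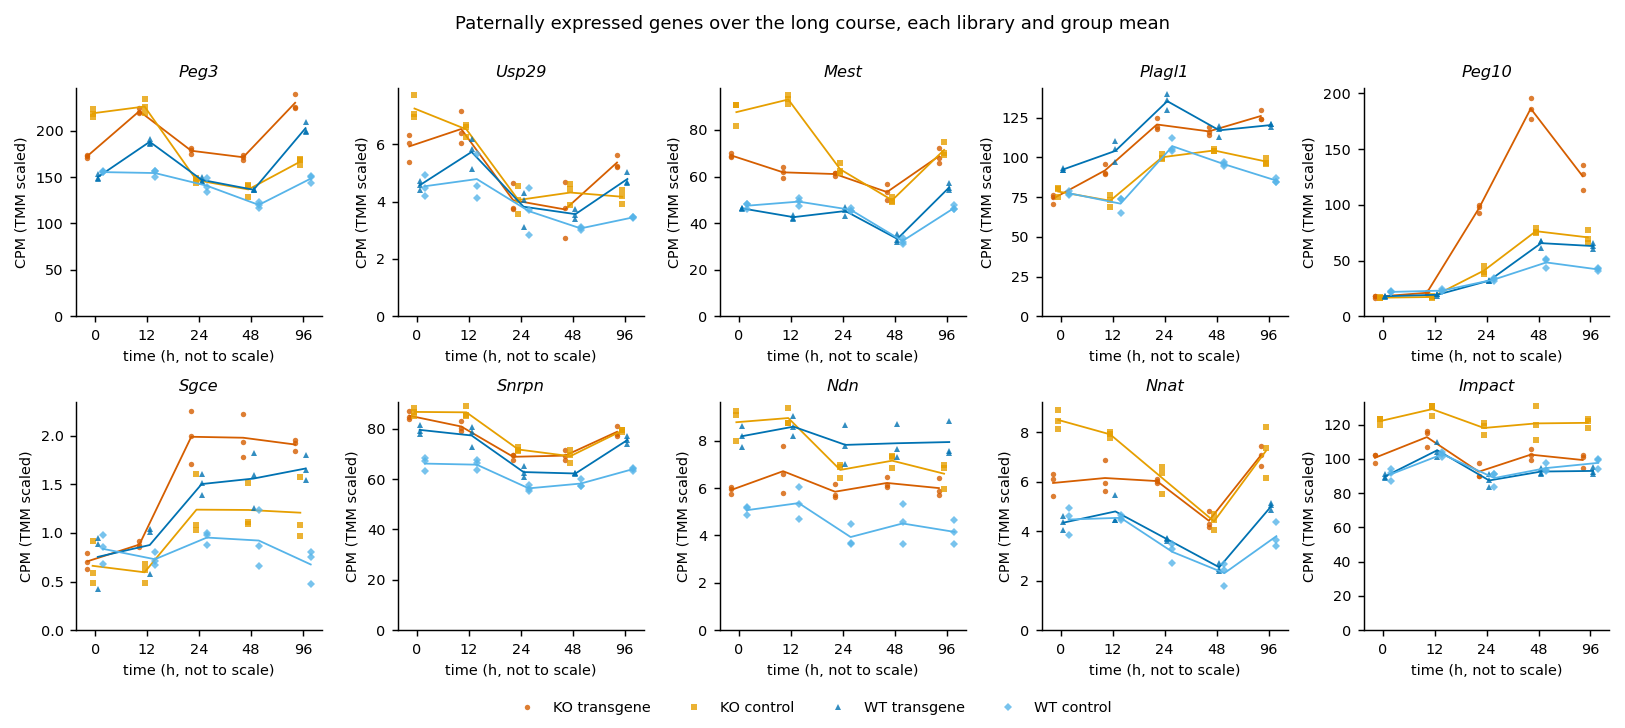
CPM (y axis, from 0) of the 10 genes against time in h (x axis, times evenly spaced) in the long course; points are libraries (3 per line and time, offset sideways by line), lines join group means. Peg10 climbs from 24 h in every line, to 177 to 196 CPM in the KO transgene line at 48 h, while Nnat and Mest dip at 48 h.

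The response to the transgene was the change from 0 h in a transgene line less that in its control. With Firre brought back in KO cells (rescue) 6 of 10 members responded over the long course, all 6 upwards, where 11.5% of all genes passed (5.56% higher, 5.97% lower). They were Peg3, Usp29, Mest, Plagl1, Peg10 and Nnat. With Firre raised in WT cells (overexpression) 5 of 10 responded, again all upwards, where 9.79% of all genes passed (4.16% higher, 5.63% lower). They were Peg3, Mest, Plagl1, Peg10 and Sgce. The median response of the 10 members was 0.49 in the rescue and 0.37 in overexpression, beside -0.05 and -0.05 over all genes tested.

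Peg3 responded at every time in the rescue. The KO transgene line had 173, 174 and 171 CPM at 0 h, 224, 219 and 220 at 12 h, 181, 179 and 175 at 24 h, 168, 174 and 172 at 48 h and 224, 226 and 240 at 96 h. The KO control had 223, 218 and 215 CPM at 0 h, 225, 234 and 219 at 12 h, 149, 144 and 147 at 24 h, 141, 140 and 129 at 48 h and 168, 163 and 169 at 96 h. The transgene line was below its control at 0 h, level with it at 12 h and above it without overlap from 24 h on. The response was 0.31 ± 0.04 at 12 h, 0.62 ± 0.04 at 24 h, 0.67 ± 0.04 at 48 h and 0.81 ± 0.04 at 96 h on the log2 scale (adjusted p over all times = 1.70e-26; 12 of 12 libraries in that direction). Part of that value is the lower start of the transgene line: at 96 h the 2 KO lines themselves differed by 0.46 ± 0.03 (adjusted p = 7.29e-21).

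In the WT background Peg3 lines did not differ beyond the test at 0 h (-0.05 ± 0.03; adjusted p = 0.320), with 153, 149 and 148 CPM in the WT transgene line and 155, 156 and 155 CPM in the WT control. At 96 h the WT transgene line had 209, 200 and 199 CPM and the WT control 144, 150 and 151 CPM. The groups were apart at 96 h, and the response was 0.50 ± 0.04 (adjusted p over all times = 4.48e-14), with 0.34 ± 0.04 at 12 h, 0.12 ± 0.05 at 24 h (adjusted p = 0.219) and 0.24 ± 0.05 at 48 h. The response was larger in the KO background, by 0.51 ± 0.06 at 24 h (test of the difference, adjusted p over all times = 1.17e-11). Directly compared at 96 h, the transgene line was above its control by 0.46 ± 0.03 in the KO pair and 0.45 ± 0.03 in the WT pair (adjusted p = 3.77e-20), after differences at 0 h of -0.34 ± 0.03 in the KO pair and -0.05 ± 0.03 in the WT pair.

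Usp29, across the shared start region from Peg3, responded in the rescue by 0.65 ± 0.16 at 96 h (adjusted p = 0.0220; 11 of 12 libraries). Its 96 h values were 5.23, 5.22 and 5.64 CPM in the KO transgene line and 4.20, 4.40 and 3.91 CPM in the KO control, without overlap. The call did not hold when any single replicate was left out (adjusted p from 0.0670 to 0.158). In overexpression it was at 0.46 ± 0.17 (adjusted p = 0.263). Over the 20 group means of the long course Usp29 and Peg3 had a Pearson r of 0.82, and over the 48 of the short course 0.48. Those means share lines and times, and r is given as a description.

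Peg10 had the largest rescue. The KO transgene line had 17.9, 16.4 and 18.1 CPM at 0 h, 98.1, 92.4 and 99.5 at 24 h, 177, 196 and 186 at 48 h and 113, 128 and 136 at 96 h, beside 16.3, 17.2 and 16.6, then 45.2, 38.2 and 39.8, then 74.9, 75.3 and 78.9, then 69.6, 65.9 and 77.0 CPM in the KO control. The lines were level at 0 h and did not overlap from 24 h on. The response was 1.17 ± 0.10 at 24 h, 1.23 ± 0.09 at 48 h and 0.76 ± 0.09 at 96 h (adjusted p over all times = 6.43e-16). In overexpression Peg10 responded by 0.72 ± 0.10 at 48 h and 0.87 ± 0.10 at 96 h (adjusted p over all times = 4.31e-11), with 62.8, 65.5 and 60.8 CPM in the WT transgene line and 43.1, 42.6 and 40.4 CPM in the WT control at 96 h. The rescue exceeded it by 0.94 ± 0.14 at 24 h (adjusted p over all times = 8.83e-08), and at 96 h the difference was -0.10 ± 0.13 (adjusted p = 0.837).

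The summed markers of trophoblast, a cell type in which Peg10 is abundant, moved with it in the KO pair. Of 7 trophoblast markers 3 had a median under 1 TPM, and their summed level at 48 h was 108 to 112 TPM in the KO transgene line, 51.0 to 52.6 TPM in the KO control, 43.3 to 46.7 TPM in the WT transgene line and 38.5 to 42.1 TPM in the WT control. Most of it came from the keratin genes: Krt8 was at 46.2 to 47.3 TPM and Krt18 at 46.8 to 48.8 TPM in the KO transgene line, against 22.0 to 23.5 TPM (Krt8) and 20.4 to 21.4 TPM (Krt18) in the KO control. Cdx2, a defining transcription factor of trophoblast, was at 1.47 to 1.72 TPM in the KO transgene line and 0.629 to 0.845 TPM in the KO control, and Gata3 was at 1.40 to 1.77 TPM in the KO transgene line and 0.807 to 1.35 TPM in the KO control. Ascl2 was at 8.5 to 9.85 TPM in the KO transgene line and 2.85 to 3.16 TPM in the KO control. Eomes was at 2.88 to 3.33 TPM in the KO transgene line and 3.15 to 3.53 TPM in the KO control, and so did not move with the sum, and Elf5 was at 0.0213 to 0.143 TPM in the KO transgene line and 0.0178 to 0.0773 TPM in the KO control. In the WT pair at 48 h Ascl2 was at 5.96 to 6.35 TPM in the WT transgene line and 2.99 to 3.77 TPM in the WT control. Krt8 and Eomes were also higher there without overlap. Krt18 (14.1 to 15.6 TPM in the WT transgene line, 14.7 to 17.1 TPM in the WT control), Cdx2 (0.858 to 1.13 and 0.932 to 1.41 TPM), Gata3 and Elf5 overlapped. The part of these markers in the rise of Peg10 was not tested.

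Sgce, at a far lower level than Peg10, responded in overexpression. At 96 h it had 1.65, 1.54 and 1.80 CPM in the WT transgene line and 0.477, 0.751 and 0.800 CPM in the WT control. The groups did not overlap, and overexpression gave a response of 1.48 ± 0.35 (adjusted p over all times = 0.0187; 11 of 12 libraries), which did not pass with any single replicate left out (adjusted p from 0.0837 to 0.179). In the rescue it was at 0.53 ± 0.34 (adjusted p = 0.741), and the difference between the backgrounds did not pass (-0.97 ± 0.48; adjusted p = 0.556). The Pearson r of Sgce over the 20 group means was 0.86 with Peg10 and 0.88 with Plagl1 in the long course, and over the 48 of the short course -0.13 and -0.31.

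The Mest response in the rescue was downwards at 12 h and upwards afterwards. The KO transgene line had 70.1, 68.6 and 68.5 CPM at 0 h and 56.6, 50.1 and 53.3 CPM at 48 h, while the KO control had 90.8, 90.6 and 81.5 CPM at 0 h and 48.9, 49.6 and 51.0 CPM at 48 h. The lines were apart at 0 h and overlapped at 48 h. The response was -0.25 ± 0.06 at 12 h (adjusted p = 0.00930), 0.30 ± 0.06 at 24 h, 0.44 ± 0.06 at 48 h and 0.29 ± 0.06 at 96 h (adjusted p over all times = 3.92e-16). At 96 h the KO lines themselves did not differ beyond the test (-0.06 ± 0.04; adjusted p = 0.395), so this response is a smaller fall from a lower start.

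In overexpression the Mest response was 0.28 ± 0.06 at 96 h (adjusted p over all times = 1.00e-06), with 57.1, 54.1 and 54.9 CPM in the WT transgene line and 47.6, 46.2 and 46.0 CPM in the WT control. These groups did not overlap. The rescue exceeded overexpression by 0.36 ± 0.09 at 48 h (adjusted p over all times = 2.59e-04), which did not pass without replicate 2 (0.33; adjusted p = 0.0644).

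Plagl1 responded within 12 h. The KO transgene line had 75.0, 76.5 and 70.6 CPM at 0 h, 90.1, 95.7 and 89.5 at 12 h and 124, 124 and 130 at 96 h, beside 79.8, 80.8 and 74.8, then 68.6, 76.4 and 73.1, then 99.6, 96.7 and 95.8 CPM in the KO control. The lines overlapped at 0 h and not at 12 or 96 h. The rescue was 0.42 ± 0.06 at 12 h, 0.36 ± 0.05 at 24 h, 0.24 ± 0.06 at 48 h and 0.46 ± 0.05 at 96 h (adjusted p over all times = 1.06e-09; 12 of 12 libraries).

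In the WT background Plagl1 was already higher at 0 h, and overexpression added 0.30 ± 0.06 at 12 h and 0.24 ± 0.05 at 96 h (adjusted p over all times = 3.27e-05). The 12 h values were 105, 110 and 97.2 CPM in the WT transgene line and 73.9, 73.7 and 65.0 CPM in the WT control, without overlap. On TPM, with limma, neither response of Plagl1 passed (0.43 with adjusted p = 0.128 in the rescue, 0.31 with adjusted p = 0.315 in overexpression). The difference between the backgrounds did not pass (0.28 ± 0.08; adjusted p = 0.0917).

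Nnat responded in the rescue by 0.49 ± 0.14 at 24 h, 0.52 ± 0.15 at 48 h and 0.48 ± 0.13 at 96 h (adjusted p over all times = 0.00822; 12 of 12 libraries), a call that did not hold with any single replicate left out (adjusted p from 0.0810 to 0.142). As for Mest, the lines differed at 0 h and met later: at 48 h Nnat had 4.80, 4.28 and 4.18 CPM in the KO transgene line and 4.47, 4.69 and 4.03 CPM in the KO control. Ndn was at 0.43 ± 0.14 in the rescue (adjusted p = 0.0993), Snrpn at -0.07 ± 0.05 (adjusted p = 0.517) and Impact at 0.08 ± 0.06 (adjusted p = 0.308). In overexpression Snrpn was at -0.17 ± 0.05 (adjusted p = 0.0624), Ndn at 0.29 ± 0.15 (adjusted p = 0.388) and Impact at -0.05 ± 0.06 (adjusted p = 0.743). Nnat was at 0.45 ± 0.15 at 96 h in overexpression (adjusted p = 0.255; 12 of 12 libraries), and its difference between the backgrounds did not pass (0.34 ± 0.23; adjusted p = 0.785). A missed threshold does not show that a gene was unaffected.

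**Figure D4:**
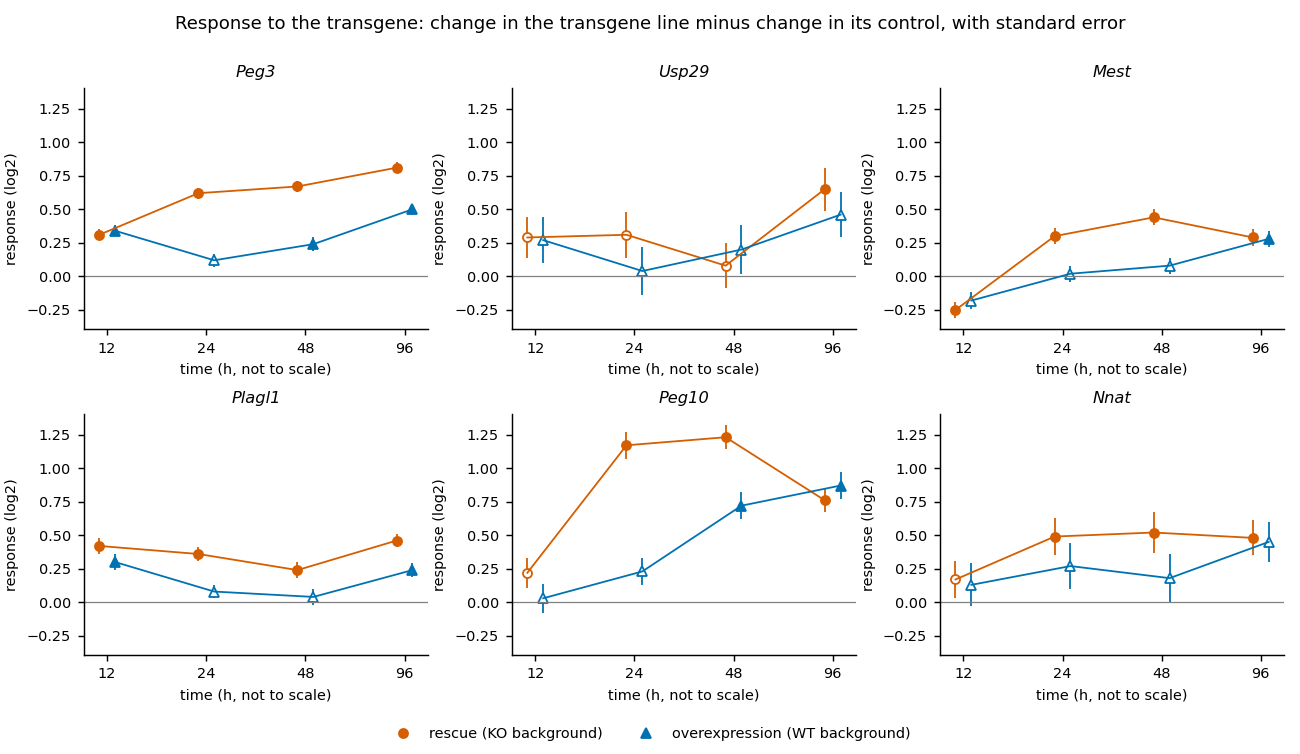
Response to the transgene (y axis, log2: change from 0 h, transgene line less control) at 12, 24, 48 and 96 h (x axis, evenly spaced) for 6 genes, in the KO (rescue, circles) and WT (overexpression, triangles) background; bars are standard errors, and filled symbols have an adjusted p under 0.05 at that time. Peg3 and Peg10 lie higher in the rescue at 24 and 48 h, and Mest is below 0 at 12 h.

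Counted by time, the rescue had 2 members up and 1 down at 12 h (0.854% of all genes passed), 5 up at 24 h (6.46%), 5 up at 48 h (4.83%) and 6 up at 96 h (5.35%). Overexpression had 2 up at 12 h (0.581%), 0 at 24 h (1.85%), 2 up and 1 down at 48 h (2.56%) and 5 up at 96 h (8.23%). The difference between the responses passed for Peg3, Mest and Peg10 (5.32% of all genes, 2.68% higher and 2.64% lower), larger in the KO background at the time of largest difference (24 h for Peg3 and Peg10, 48 h for Mest). By time it passed for 0 members at 12 h (0.00569% of all genes), 4 at 24 h (2.78%), 3 at 48 h (2.18%) and 1 at 96 h (1.12%). The member at 96 h was Peg3, at 0.30 ± 0.06 (adjusted p = 0.00336). These 2 responses have no sample in common, and the difference was tested in 1 fit.

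Direct comparison of the lines at 96 h found 5 members higher and 1 lower when the KO transgene line was set against the KO control (15.2% of all genes passed, 7.45% higher and 7.71% lower), and 9 higher and none lower in the WT transgene line than in the WT control (17.5%, 8.38% higher and 9.13% lower). Sgce (1.32 ± 0.24; adjusted p = 1.55e-05) and Ndn (0.95 ± 0.10; adjusted p = 1.94e-11) differed most in the WT pair, and Peg10 (0.83 ± 0.05; adjusted p = 2.97e-17) in the KO pair. In the KO pair the Usp29 call was lost with any single replicate left out, and the Sgce call without replicate 2 or 3 (adjusted p = 0.189 and 0.211). Ndn, Plagl1 and Snrpn had differed in the WT pair already at 0 h. Impact was the member that was lower in the KO pair (-0.28 ± 0.04; adjusted p = 4.05e-08), with 101, 94.9 and 102 CPM in the KO transgene line and 118, 122 and 123 CPM in the KO control, by as much as at 0 h.

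Marker sums of other kinds also differed between the KO lines at 24 and 96 h. The 12 fibroblast markers summed to 10.7 to 14.0 TPM in the KO transgene line and 7.96 to 10 TPM in the KO control at 24 h, and to 10.8 to 11.7 TPM in the KO transgene line and 8.67 to 9.47 TPM in the KO control at 96 h. Of these 12, 9 had a median under 1 TPM over all libraries, among them Lum, Dcn, Col3a1, Postn, S100a4 and Twist2 at 0 TPM. Tagln (4.63 TPM), Col5a1 (1.97 TPM) and Thy1 (1.89 TPM) had the highest medians. The 6 primitive endoderm markers, of which 4 had a median under 1 TPM, summed to 4.74 to 5.68 TPM in the KO transgene line and 3.32 to 3.51 TPM in the KO control at 24 h, and to 4.46 to 4.84 TPM in the KO transgene line and 2.86 to 3.48 TPM in the KO control at 96 h. The 10 embryonic stem cell markers summed to 7610 to 8589 TPM in the KO transgene line and 9407 to 9709 TPM in the KO control at 24 h, and to 7623 to 7966 TPM in the KO transgene line and 8596 to 8758 TPM in the KO control at 96 h. The part of these markers in the responses of Peg3, Mest and Plagl1 was not tested.

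Within the first 330 min the members hardly responded. In the rescue 1 of 10 passed (1.82% of all genes, 0.755% higher and 1.07% lower) and in overexpression 1 of 10 (0.7%, 0.505% higher and 0.194% lower), in each case Plagl1, and for the difference between the responses 0 of 10 passed (0.0167%, 0.0111% higher and 0.00555% lower), also at an unadjusted p under 0.05. At 0 min Plagl1 had 100 and 103 CPM in the WT transgene line and 121 and 127 CPM in the WT control. At 330 min it had 103 and 106 CPM in the WT transgene line and 107 and 114 CPM in the WT control. The line without the transgene was above at both times. The difference between those lines was -0.29 ± 0.06 at 0 min and -0.08 ± 0.06 at 330 min on the log2 scale, and the spline test of the response passed (adjusted p = 5.82e-05). No single time passed by itself. In the rescue the spline test of Plagl1 also passed (adjusted p = 0.00308), with responses between -0.12 and 0.20 at the single times. Neither call was kept without replicate 2 (adjusted p = 0.0795 in the rescue and 0.116 in overexpression) or with 1 coefficient per time (adjusted p = 0.145 and 0.158).

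Other genes of imprinting biology were counted from 3 lists. Of 9 tested genes of the imprinted network around Plagl1, 4 rose and 1 fell in the long-course rescue, and 2 rose and 1 fell in overexpression, beside 11.5% and 9.79% of all genes. In the rescue these included H19 (1.81 ± 0.26 at 48 h; adjusted p = 1.70e-06), a maternally expressed noncoding RNA, Igf2 (1.19 ± 0.26 at 48 h; adjusted p = 7.20e-04), a growth factor, and Cdkn1c (1.02 ± 0.17 at 48 h; adjusted p = 5.46e-07), a cell cycle inhibitor. Their median response was 0.71 in the rescue, beside -0.05 over all genes tested. In KO control against WT control Meg3, a maternally expressed noncoding RNA, was higher in both courses (0.39 ± 0.02 in the long and 0.71 ± 0.04 in the short, as the mean over times, edgeR adjusted p = 6.37e-27 and 5.89e-22). It was also higher at 0 min in the WT transgene line than in the WT control (0.74 ± 0.04 in the long and 0.61 ± 0.13 in the short course, edgeR adjusted p = 1.79e-22 and 0.00223).

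Among 16 genes that set or guard imprints, 5 were higher and 3 lower in the rescue, and 4 higher and 5 lower in overexpression, beside 11.5% and 9.79% of all genes. Dnmt3l, a cofactor of de novo DNA methylation, was higher in the rescue (0.55 ± 0.05 at 24 h; adjusted p = 1.94e-21) and lower in overexpression (-0.38 ± 0.05 at 48 h; adjusted p = 4.14e-09), and the difference between the responses passed (0.81 ± 0.07 at 24 h; adjusted p = 1.00e-20). Dnmt3b (0.42 ± 0.05 at 48 h; adjusted p = 5.80e-15) and Dnmt3a (0.47 ± 0.05 at 48 h; adjusted p = 2.96e-12), the de novo methyltransferases, were higher in the rescue, and Tet2, which oxidizes methylcytosine, was lower (-0.37 ± 0.04 at 96 h; adjusted p = 5.72e-09). Zfp57, the imprint guard, differed at 96 h between the KO transgene line and the KO control (-0.21 ± 0.02; adjusted p = 3.27e-10) and was lower too in the WT pair (-0.17 ± 0.02; adjusted p = 1.35e-07). No methylation was measured.

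Of 21 tested neighbours of the members' domains, 1 was higher and 1 lower in the rescue, a share near the 11.5% of all genes. They were Peg12, a paternally expressed gene near Ndn (0.58 ± 0.15 at 24 h; adjusted p = 0.00678), and Ube3a, a ubiquitin ligase (-0.16 ± 0.05 at 24 h; adjusted p = 0.0491). In overexpression Cep41, beside Mest, was higher (0.44 ± 0.12 at 48 h; adjusted p = 0.0302). None of the neighbours of Peg3, Plagl1 or Peg10 passed in either response. In KO control against WT control, averaged over the long course, 8 of the 21 neighbours were higher and 4 lower, where 52.2% of all genes passed, so their share is near that of all genes. Among those higher were Cep41 (0.38 ± 0.04; adjusted p = 2.70e-14) and Clcn4, in the Peg3 domain (0.32 ± 0.04; adjusted p = 1.18e-10).

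Genes outside the set whose group means ran most like those of 3 members were taken by Pearson r over the 20 groups of the long course, as a description. Peg3 was most like Slc27a2 (r = 0.938), Hps3 (0.927), Pim2 (0.921), Pla2g10 (0.915) and Plk3 (0.910). Mest was most like Elac2 (0.943), Gemin5 (0.941) and Morc2a (0.938), and Plagl1 most like Acadl (0.935), Prex1 (0.928) and Map4 (0.925). Between members r was 0.76 for Peg3 and Mest, -0.09 for Peg3 and Plagl1 and -0.32 for Mest and Plagl1, whereas over the 48 groups of the short course it was 0.57, 0.88 and 0.46.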

How the data were processed

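Poly(A) RNA-seq libraries (156, in 68 groups of line and time) were analysed. Per the submitters' processing notes, reads were quantified with Salmon 1.5.2 against mm10. The deposited tables hold expected counts per gene, of which 76% of values were whole, and TPM, which the authors normalized per transcript length and library total.

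Expected counts were rounded, and genes with low counts were removed with filterByExpr (minimum count 10, minimum total 15), which kept 17565 genes in the long and 18009 in the short course. Each course was scaled by TMM and fitted with edgeR 4.0.16 (R 4.3.3, quasi-likelihood, robust) with 1 coefficient per line and time. Responses and changes over time were F tests over all times, given for the long course at the time with the biggest fold change; for the short course a spline with 3 degrees of freedom was used, with the mean over times as fold change. P-values were adjusted by Benjamini-Hochberg over all genes tested, and 0.05 was the threshold. Standard errors are the size of the fold change over the root of F. CPM per library are scaled counts, and TPM serve to compare genes. Alternatives were limma 3.58.1 on log2(TPM + 1) and log2(TPM + 0.1), DESeq2 1.42.0 and its size factors, no filter, only the lines compared, each replicate left out and a replicate block. The leave-out of replicate 3 of the WT control at 24 h was chosen after seeing the data. The procedure was tested on simulated data.

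The members, the lists and the tests were chosen with earlier results of these data known. All 10 members are described; of each list, the genes named are called ones, up to 4 per comparison in order of p, and genes of like pattern are the 5 with the highest r for Peg3 and 3 each for Mest and Plagl1. The 3 lists held 10 network genes (9 tested), 16 regulators and 27 domain neighbours (21 tested in the long course). No lane or extraction batch is named in the labels. Counting error limits the low genes most.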

Additional observations from a re-analysis of the deposited data

Results flagged for a closer look

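In 3 genes the change after the transgene was induced differed between the backgrounds by a test of the difference (rescue minus overexpression, long course): Peg10 by 0.94 at 24 h, Peg3 by 0.51 at 24 h and Mest by 0.36 at 48 h on the log2 scale, larger in the KO background at those times. At 96 h the differences were -0.10 for Peg10, 0.30 for Peg3 and 0.01 for Mest, and the Mest call was lost without replicate 2 (adjusted p = 0.0644, edgeR). Each response subtracts the difference between transgene line and control at 0 h. That difference was -0.34 for Peg3 and -0.35 for Mest in the KO pair, and -0.28 for Peg10 in the WT pair. Compared directly at 96 h, the lines differed for Peg3 by 0.46 in the KO pair and 0.45 in the WT pair.

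For 5 comparisons at 0 min every library of the long course lay on one side and every library of the short course on the other, which was not tested. The share of all genes that did so was not counted, and each short-course group had only 2 libraries. KO control against WT control was 0.49 for Peg3 in the long course, against -0.26 in the short one, 0.92 (long) and -0.23 (short) for Nnat, and 0.43 (long) and -0.19 (short) for Impact. WT transgene line against WT control was 0.25 for Plagl1 in the long course, against -0.29 in the short one, and -0.28 (long) and 0.20 (short) for Peg10. The short-course values of Nnat (edgeR adjusted p = 0.421) and Peg10 (edgeR adjusted p = 0.360) did not pass, and without replicate 2 those of Peg3 (-0.10), Impact (-0.00) and Plagl1 (-0.26) did not.

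Transgene line against control was opposite in the KO and WT backgrounds for Ndn at 0 min, at -0.57 in the KO and 0.69 in the WT background of the long course and at -0.50 in the KO and 0.91 in the WT background of the short course. For Snrpn it was -0.08 in the KO and 0.21 in the WT background of the short course. These differences between backgrounds were not tested.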

How the results depend on the processing

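Of the 96 called member values, 67 kept their direction and their side of the threshold under every alternative run, and of 973 alternative values 888 did so, 76 missed the threshold and 9 changed sign. The 20 counts of called members stayed within 1.5 times in 169 of 199 settings. The share of all genes that passed moved with the setting too. It is given in brackets below except where a replicate was left out, with log2(TPM + 1) before log2(TPM + 0.1). With a replicate left out, a short-course group held 1 library, so fewer called members there cannot be told apart from a weaker test. In the short course KO control against WT control at 0 min had 5 called members (7.51% of all genes). It had 3 with only the lines compared (7.24%), 3 on either TPM scale (5.07% and 4.97%) and at most 5 with a replicate left out. KO transgene line against KO control at 0 min had 0 (0.161%). It had 2 without the filter (0.795%), 1 with DESeq2 (0.355%) and 2 with the replicate block (0.455%). WT transgene line against WT control at 0 min had 4 (2.93%), against 2 on either TPM scale (1.44% and 1.36%) and at most 4 with a replicate left out. The change in the KO control had 2 (13.3%), against 0 with only the lines compared (9.04%) and 1 on either TPM scale (6.86% each). It had 0 with 1 coefficient per line and time (5.72%) and 0 to 1 with a replicate left out. The change in the WT control had 3 (21.8%), against 1 with 1 coefficient per line and time (11.2%) and 0 to 1 with a replicate left out. The rescue had 1 (1.82%), against 0 on either TPM scale (0.626% and 0.556%). It had 0 with 1 coefficient per line and time (0.95%) and 0 to 1 with a replicate left out. Overexpression had 1 (0.7%), against 2 with only the lines compared (1.24%). It had 0 with 1 coefficient per line and time (0.255%) and 0 to 2 with a replicate left out. In the long course the rescue had 6 called members (11.5%), against 3 on either TPM scale (3.74% and 3.45%). The sign changed for Impact over time in the KO control (-0.27 and -0.28 on TPM, -0.08 to 0.08 with a replicate left out) and in the WT control (-0.26 on either TPM scale), for Snrpn over time in the KO control of the short course (-0.02 to 0.01 with a replicate left out) and for Plagl1 in the short rescue (-0.10 on either TPM scale, -0.05 to 0.11 with a replicate left out). The causes were not tested.

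Replicate numbers were not taken to pair the samples, since not every same-numbered pair correlated over 0.1: deviations of same-numbered libraries had a median correlation of 0.004 in the long course (14 of 45 libraries were most like their own number) and 0.031 in the short course (38 of 72), and every same-numbered pair was over 0.1 in 0 of 15 pairs of lines at a time in the long course and 11 of 36 in the short course. In both KO lines Peg3 was nonetheless higher in replicate 1 at 12 of 12 short-course times. Other genes were split in some lines too. Impact was higher in replicate 1 at 11 times (KO control) and 10 (KO transgene), against 4 (WT control) and 6 (WT transgene). Plagl1 was higher in replicate 2 at 11 times (WT control) and 10 (WT transgene), against 5 (KO control) and 4 (KO transgene). Peg10 was higher in replicate 1 at 11 times (KO control), against 5 (WT control). With a replicate block all 96 called values were kept. That block is shared by all lines, so it cannot take up a replicate offset that is present in only some lines. Sgce, with 7 to 76 counts per library, is limited by depth.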
